A study of Mus musculus with 714 samples.

Results

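The rows described here carry names of gene families known for writing, erasing or reading chemical marks on chromatin, moving nucleosomes or binding chromatin. Not every row codes for such a protein, and the set leaves out other genes that do. The rows were followed in the lining of the mouse uterus at 5 ages. They were chosen by name: the rows of the deposited count table whose names match Dnmt, Tet1 to Tet3, Kdm, Kmt, Setd, Hdac, Sirt, Smarc, Arid, Chd or Brd with a digit, Cbx, Ezh, Suz12, Eed, Hmga, Hmgb, Hmgn, Ehmt or Prmt. This gave 1.07% of the table's 12479 rows: 82 rows with at least 50 counts over all cells, 22 with 20 to 49 and 29 with fewer. Among them, 17 are named as pseudogenes, related sequences or opposite-strand transcripts, 9 of which are Hmgb1 pseudogenes. The cells were uterine epithelial cells of ICR mice, an outbred stock, that had been sorted singly by CD326, the adhesion protein EpCAM. CEL-seq, the method used, counts transcripts from their 3′ ends. The groups are postnatal day (pnd) 0, 7, 14, 28 and 56, with 714 cells in all. Cell titles fall into 10 numbered blocks of 96, called runs here: runs 1 and 2 hold 88 and 85 cells of pnd0, runs 5, 6 and 10 hold 88, 87 and 92 of pnd7, runs 3, 4 and 7 hold 70, 24 and 79 of pnd14, run 9 holds 56 of pnd28 and run 8 holds 45 of pnd56. All groups carry the same strain and tissue labels, with no treatment or mutation named. The labels name no animal, litter or pool, so each age is 1 sample without a replicate, and no test between ages was made. Every interval below is a 95% interval of counting error only, with counts taken as independent.

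Chromatin is DNA wound around histone proteins. Methyltransferases and deacetylases change chemical groups on DNA or on histone tails, demethylases and Tet enzymes take methyl groups away again, and proteins with bromodomains or chromodomains bind to the marks. ATP-driven remodellers slide or evict nucleosomes, and the high mobility group (HMG) proteins bend DNA or bind nucleosomes and are abundant in embryonic and dividing cells. In the mouse uterus the lining is a simple tube at birth and forms glands during the first postnatal weeks.

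Several of the HMG rows are near copies of one another, and long stretches of their sequences are identical, so their counts are uncertain. For Hmgb1, a 60-base coding stretch (GRCm38, chr5:149048884-149049756, minus strand, across an intron) is held letter for letter by 8 of the 10 Hmgb1 pseudogene and related-sequence transcripts in GENCODE M21.
Hmgb1: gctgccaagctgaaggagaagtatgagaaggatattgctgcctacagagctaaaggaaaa

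For the 9 numbered Hmgb1 pseudogenes the share of all 50-base windows found in a Hmgb1 transcript ran from 17.3% for Hmgb1-ps8 to 79.6% for Hmgb1-ps2, and it was 0.71% for Hmgb1-rs16. Hmgb1-ps1 and Hmgb1-ps2 had a Pearson correlation of counts of 0.90 over 714 cells that share their libraries, while Hmgb1 itself had 304 counts against 1548 of Hmgb1-ps2. All windows of Hmgn2-ps1 (100%) are found in Hmgn2, and none of Hmgn2l6. How the authors' counting shared reads between such rows is not stated in any source at hand, so the values of Hmga1, Hmgb1, Hmgn2 and the copy rows are uncertain as values of single genes.

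The 250 bases before the start of a pair of members are shown because they stood on opposite sides at pnd14, with Hmgb3 lower and Hdac11 higher than at pnd7. They come from RefSeq (GRCm38.p6), at chrX:71555667-71555916 for Hmgb3 and chr6:91156565-91156814 for Hdac11, both on the plus strand. Capitals mark the CCAAT box on either strand (CCAAT or ATTGG), with 3 matches in Hmgb3 and 1 in Hdac11.
Hmgb3: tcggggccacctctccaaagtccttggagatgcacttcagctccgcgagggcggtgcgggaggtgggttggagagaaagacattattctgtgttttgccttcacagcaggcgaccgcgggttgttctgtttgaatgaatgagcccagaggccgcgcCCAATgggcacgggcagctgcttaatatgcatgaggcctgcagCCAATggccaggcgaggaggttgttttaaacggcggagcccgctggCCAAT
Hdac11: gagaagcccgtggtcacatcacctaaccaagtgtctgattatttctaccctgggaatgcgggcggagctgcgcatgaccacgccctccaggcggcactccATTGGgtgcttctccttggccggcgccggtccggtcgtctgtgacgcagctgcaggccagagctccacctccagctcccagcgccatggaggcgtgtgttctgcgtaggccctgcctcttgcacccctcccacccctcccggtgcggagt
The same windows of Hmga1, Smarcc1 and Smarca2 hold no CCAAT box, and none of these 5 holds the E2F-type letters GCGGGAA or TTCCCGC. Of the 93 members with a promoter in the table, 34 (36.6%) hold a CCAAT box, against 33.9% of all 32851 promoters, and 8 (8.60%) hold the E2F-type letters, against 3.82%. Each member was read at 1 start, also Hmga1 with 2 in the table, but all promoters at every start. The shares are thus of unlike units. These are matches of letters and show no binding.

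The ages sum to 582615, 732957, 354047, 96248 and 81894 counts from pnd0 to pnd56, with medians of 3037, 2492, 1782, 1600 and 1670 counts per cell. Levels are sums over the cells of an age per 1000000 counts (CPM), so fewer cells of a type and less RNA per cell cannot be told apart. Where 5 values are given without ages, they run from pnd0 to pnd56, and square brackets hold intervals. A count of 0 allows up to 5.15, 4.09, 8.47, 31.2 and 36.6 CPM at the 5 ages by a floor of 3 counts. The labels do not say what a run is, and no run holds more than 1 age, so age and run cannot be told apart. The epithelial keratin Krt18 was counted in 98.8%, 98.9%, 91.9%, 78.6% and 91.1% of cells, and Epcam, the gene of the sorted protein, in 50.9%, 44.2%, 34.1%, 28.6% and 53.3%. The smooth muscle list (6 of 10 markers have a row) summed to 70.4, 182.8, 2827, 1299 and 110 CPM, with 1 marker at 0 at pnd14. The stroma list (8 of 10) summed to 39.5, 124.2, 768.3, 3346 and 2931 CPM, with all 8 counted at pnd28. The immune list (6 of 12) summed to 65.2, 95.5, 90.4, 477.9 and 293 CPM, and the endothelial list (7 of 8) to 152.8, 167.8, 474.5, 176.6 and 305.3 CPM. The erythroid list (5 of 9) stood at 13475 CPM at pnd0 and at most 327 CPM later. The part of these other cells in the values below was not tested, except that leaving out cells with at least 3 smooth muscle counts is given where it moved a ratio named below by over 1.5-fold or left one age without a count.

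The chromatin rows together took a smaller share of all counts at the later ages. They held 1.75% of counts at pnd0, 1.64% at pnd7, 1.31% at pnd14, 1.08% at pnd28 and 1.22% at pnd56. Run values were 1.74% and 1.76% at pnd0, 1.42% to 1.72% at pnd7 and 1.23% to 1.40% at pnd14, so the runs of pnd14 all lay below those of pnd7 and pnd0. The 17 pseudogene, related-sequence and opposite-strand rows held between 25.9% and 37.8% of the member counts at the 5 ages. Without them the shares were 1.16%, 1.13%, 0.956%, 0.802% and 0.761%, so pnd56 then lay below pnd28 instead of above it. Of the members, 6, 8, 19, 35 and 46 had no count at the 5 ages, and 79 had a count at every age. Low rows include some well-known enzymes: Dnmt1, the maintenance DNA methyltransferase, had 1 count in all, Tet2 had 1 and Hdac3 had 2. Nothing is stated about differences in those genes.

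**Figure D1:**
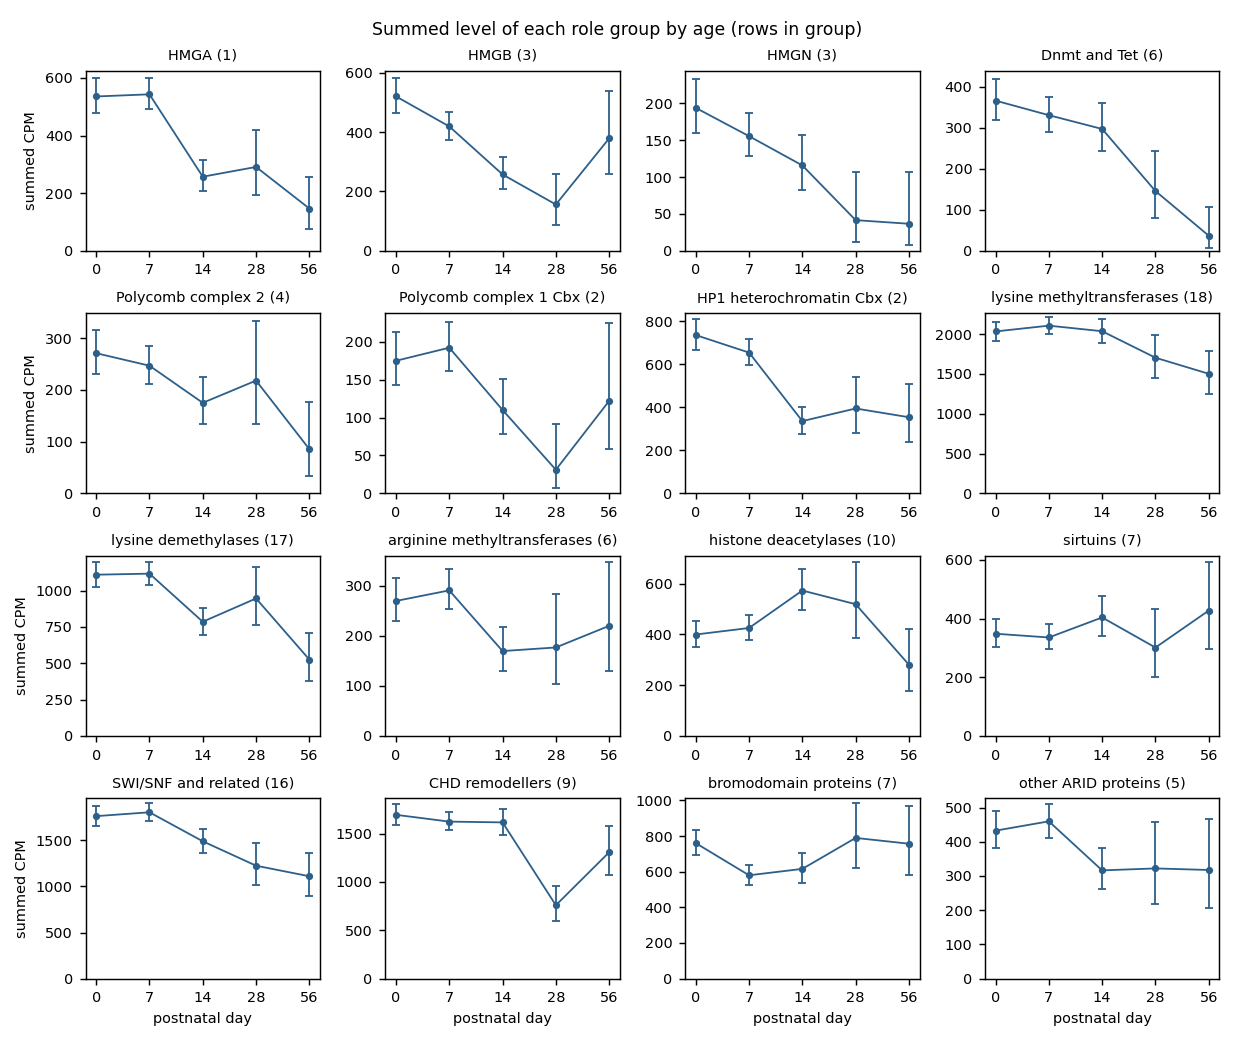
Summed level in CPM (vertical axes, from 0) of each role group at postnatal days 0, 7, 14, 28 and 56, with the number of rows in brackets; bars are exact Poisson 95% intervals. The HMGA and HP1 groups step down between pnd7 and pnd14, and the CHD remodellers have their lowest value, 758.5 CPM, at pnd28.

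Fewer members stood at least 2-fold higher than at least 2-fold lower in 4 of the 5 comparisons, with pnd56 over pnd28 the exception. A member entered a comparison when both ages together held 20 or more of its counts, and its ratio is the later level over the earlier one. At pnd7 over pnd0, 3 members (2.97% of those that entered) were at least 2-fold higher and 8 (7.92%) lower, against 4.94% and 7.61% of all 5953 rows that entered, so both shares lay near or below those of all rows. The 3 became 9 without run 1, 8 without run 2 and 0 without run 10, and the 8 became 5 without run 1. At pnd14 over pnd7, 4 of 93 (4.30%) were higher and 16 (17.2%) lower, against 10.7% and 14.3% of 5553 rows. The 4 became 2 without run 6. At pnd28 over pnd14, 4 of 63 (6.35%) were higher and 23 (36.5%) lower, against 11.9% and 23.2% of 3785 rows, and without run 7 it was 14 of 54 that were lower. At pnd56 over pnd28, 10 of 34 (29.4%) were higher and 4 (11.8%) lower, against 14.8% and 16.5% of 1797 rows, and 4 of the 10 were Hmgb1 pseudogene rows. At pnd56 over pnd0, 2 of 81 (2.47%) were higher and 28 (34.6%) lower, against 10.3% and 27.4% of 4725 rows, with 0 higher without run 1. A member that entered through one age alone had to differ, so these counts describe the rows that entered and no more.

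The median log2 ratio of the members that entered was −0.07 at pnd7 over pnd0, −0.25 at pnd14 over pnd7, −0.40 at pnd28 over pnd14, 0.32 at pnd56 over pnd28 and −0.71 at pnd56 over pnd0. For all rows that entered it was −0.03, −0.10, −0.23, 0.06 and −0.45. With rows without a count set at the floor, the medians of pnd56 over pnd0 were −0.63 for members and −0.34 for all rows. Without the pseudogene, related-sequence and opposite-strand rows the median of pnd56 over pnd28 turned to −0.27 and that of pnd7 over pnd0 to 0.04. Median-of-ratios scaling would raise the ratios by 0.02, 0.10, 0.03, 0.04 and 0.19, in the order of the comparisons above.

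Among the HMG proteins, Hmga1, Hmgb3 and Hmgn3 were high in the newborn uterus and low in the adult one. Hmga1, which bends DNA at AT-rich stretches, stood at 535.5 CPM at pnd0, 543.01 at pnd7, 257.03 at pnd14, 290.9 at pnd28 and 146.5 at pnd56. Its runs had 514.6 and 557.05 CPM at pnd0, 603.6, 535.7 and 496.3 at pnd7, and 244.2, 244.9 and 273.5 at pnd14, so every pnd14 run lay below every earlier one. The log2 ratio of Hmga1 was −1.08 [−1.42, −0.75] at pnd14 over pnd7 and −1.87 [−2.84, −1.04] at pnd56 over pnd0. It was counted in 22.5% of pnd14 cells against 56.2% of pnd7 cells, and in 21.2% against 44.5% with each cell thinned to 1500 counts. An opposite-strand gene, AI413582, overlaps the last 1000 bases of Hmga1 in GENCODE M21, and no source at hand says whether the strand was used in counting.

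Hmgb3, a DNA-bending protein of stem and progenitor cells, stood at 310.7, 261.9, 129.9, 103.9 and 61.1 CPM over the 5 ages. Its runs had 308.1 and 313.3 CPM at pnd0, 266.9, 175.3 and 320.3 at pnd7 and 170.2, 137.8 and 91.2 at pnd14. Every pnd14 run thus lay below every pnd7 run, narrowly so for the nearest pair, and the log2 ratio was −1.01 [−1.51, −0.54]. Set against pnd0, pnd56 gave −2.35 [−3.99, −1.10], from 5 counts at pnd56. Hmgb1, the ubiquitous member of the family, had another course, with 205.97, 156.9, 127.1, 51.95 and 232.01 CPM. At pnd56 over pnd28 its ratio was 2.16 [0.69, 3.94], from 19 counts against 5. The copies Hmgb1-ps2 and Hmgb1-ps3 stood at 928.03 and 659.4 CPM at pnd56 against 394.8 and 270.1 at pnd28, with ratios of 1.23 [0.65, 1.83] and 1.29 [0.59, 2.02]. At equal depth that of Hmgb1-ps3 was 0.62. Hmgb1-ps7 stood lower at pnd28, at 103.9 CPM against 271.2 at pnd14, a ratio of −1.38 [−2.49, −0.44], which was −2.26 without the cells with smooth muscle counts. Hmgb1-ps8 had 45.2 CPM at pnd14 against 105.1 at pnd7, a ratio of −1.22 [−2.09, −0.43]. Hmgb2, a protein of dividing cells, had 9 counts in all, of which 7 lay in 2 cells of pnd56.

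The nucleosome-binding HMGN proteins loosen chromatin fibres. Hmgn3 stood at 161.3, 76.4, 64.96, 31.2 and 12.2 CPM. The pnd7 runs, at 110.9, 73.1 and 49.3 CPM, lay below both pnd0 runs, at 162.5 and 160.2 CPM, with a log2 ratio of −1.08 [−1.58, −0.59] at pnd7 over pnd0. At pnd56 over pnd0 it was −3.72 [−9.04, −1.21], from 1 count against 94, and −2.42 at equal depth. Its pnd14 runs spread from 15.3 to 104.2 CPM, and its ratio at pnd14 over pnd7 was −0.23 with all runs and −1.13 without run 7. Hmgn1 stood between 30.9 and 42.4 CPM at the first 3 ages, with no count at pnd28 and 2 at pnd56. Hmgn2 had 28 counts at pnd7, of which 1 cell held 14, and 1 count at pnd0, and its log2 ratio was 4.48 [1.88, 9.83]. It was 3.46 without run 1, 3.48 without the cell of the highest count and 3.07 at equal depth. Without run 2 no count was left at pnd0, which leaves a bound of 1.91.

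**Figure D2:**
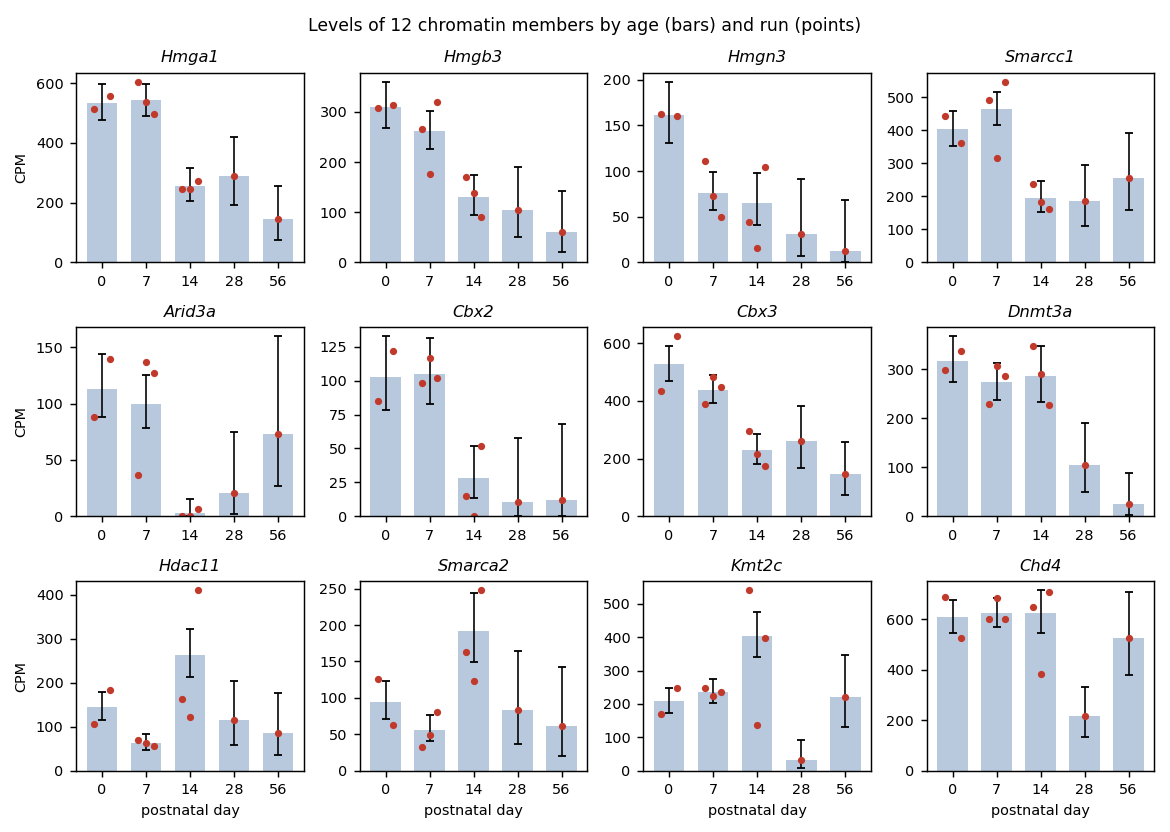
Level in CPM (vertical axes, from 0) of 12 members at postnatal days 0, 7, 14, 28 and 56; bars are the age sums with exact Poisson 95% intervals and red points are runs, of which pnd28 and pnd56 have 1 each. Hmga1, Hmgb3, Smarcc1, Arid3a, Cbx2 and Cbx3 have all pnd14 runs below all pnd7 runs, and Hdac11 and Smarca2 have them above.

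Among the DNA methylation genes, Dnmt3a, the enzyme that sets new methyl groups on DNA, was low at the last 2 ages. Dnmt3a stood at 317.5, 272.9, 285.3, 103.9 and 24.4 CPM over the 5 ages. Its runs had 297.9 and 337.7 CPM at pnd0, 229.96, 306.8 and 285 at pnd7 and 347.7, 290.9 and 227.9 at pnd14, and the runs of these 3 ages overlapped. The single runs of pnd28 and pnd56 lay below all of them. The log2 ratio was −1.46 [−2.56, −0.52] at pnd28 over pnd14 and −3.70 [−6.76, −1.83] at pnd56 over pnd0, from 2 counts at pnd56. At equal depth the second of these was −2.71. Cells with a count of Dnmt3a made up 4.44% at pnd56 against 46.8% at pnd0, or 8% against 31.7% at equal depth. Its relative Dnmt3b had 17, 24, 3, 3 and 1 counts. At pnd14 over pnd7 Dnmt3b had a ratio of −1.95 [−4.33, −0.23], which was −1.26 without run 3, −2.71 without run 7 and −1.05 at equal depth. Tet1, which oxidises methylcytosine, had 10, 17, 1, 0 and 0 counts. The 6 members of this group together gave 36.6 CPM at pnd56 against 365.6 at pnd0.

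Of Polycomb repressive complex 2, which methylates histone H3 at lysine 27, Ezh2 is the main catalytic subunit in dividing cells. Ezh2 stood at 187.1, 170.5, 115.8, 166.2 and 48.8 CPM, with run values of 162.5 and 212.4 at pnd0, 114.98, 116.9 and 256.9 at pnd7, and 96.2, 229.6 and 84.7 at pnd14. The pnd7 and pnd14 runs overlapped, and the ratio between these ages was −0.56 [−1.10, −0.04]. At pnd56 over pnd0 it was −1.94 [−3.84, −0.54], from 4 counts at pnd56, and at pnd56 over pnd28 −1.77 [−3.81, −0.13]. Suz12, a structural subunit, stood at 61.8, 51.8, 42.4, 10.4 and 0 CPM, with no count at pnd56 and 36 at pnd0, at least 1.69-fold lower by the floor. Ezh1 and Eed had 24 and 20 counts in all.

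The chromodomain proteins of Polycomb repressive complex 1 bind methylated histones. Cbx2, one of them, stood at 102.98, 105.1, 28.2, 10.4 and 12.2 CPM. Its runs had 14.8, 0 and 52.1 CPM at pnd14 and 98.6, 116.9 and 102.1 CPM at pnd7, without overlap. Its log2 ratio at pnd14 over pnd7 was −1.90 [−3.01, −0.94], and −3.40 without run 7. At pnd56 over pnd0 it was −3.08 [−8.40, −0.54] from 1 count against 60. No count was left at pnd56 at equal depth, which leaves a bound of −0.40 there.

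The heterochromatin proteins Cbx3 and Cbx1 (HP1 gamma and beta), which bind histone H3 methylated at lysine 9, stood lower at pnd14 together. Cbx3 stood at 526.9, 437.9, 228.8, 259.7 and 146.5 CPM, and its pnd14 runs, at 295.9, 214.3 and 175.8 CPM, lay below its pnd7 runs, at 390.1, 482.1 and 447.02 CPM. Its log2 ratio at pnd14 over pnd7 was −0.94 [−1.31, −0.58], just under 2-fold. At pnd56 over pnd0 it was −1.85 [−2.81, −1.02]. Cbx1 stood at 209.4, 216.9, 107.3, 135.1 and 207.6 CPM, with −1.02 [−1.57, −0.50] at pnd14 over pnd7 from overlapping runs, and −0.01 [−0.84, 0.73] at pnd56 over pnd0.

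**Figure D3:**
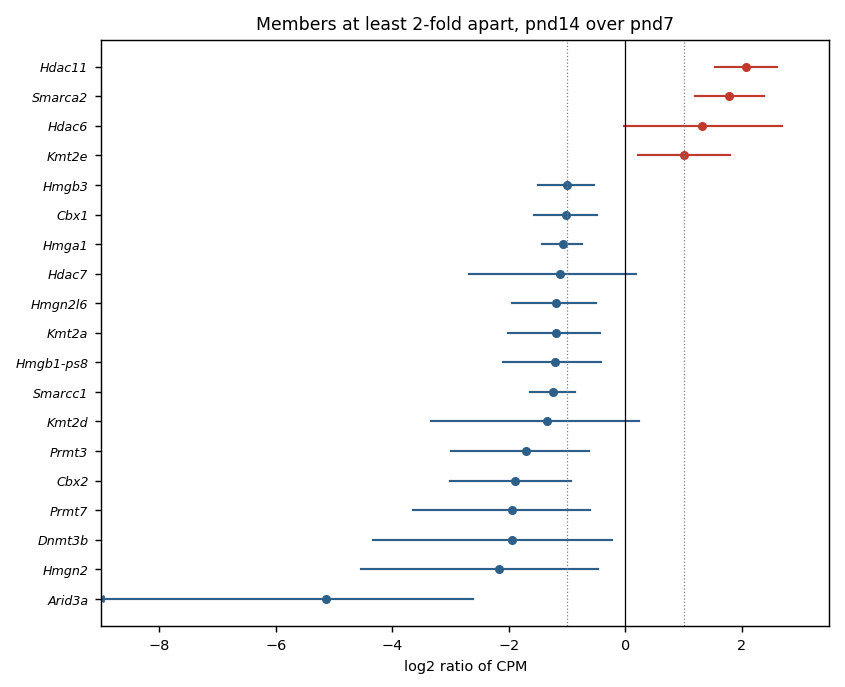
Log2 ratio of CPM at pnd14 over pnd7 (horizontal axis) of 19 members at least 2-fold apart, with exact 95% intervals; red marks are higher at pnd14, blue marks lower, dotted lines mark 2-fold, and an open arrow at the edge shows an interval that goes on. The lower members run from −1.01 for Hmgb3 to −5.14 for Arid3a, which had 1 count at pnd14, and 4 members are higher; 1 of the 20 members counted in the text is not drawn.

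Among the histone lysine methyltransferases, Kmt2c stood high at pnd14 and low at pnd28. Kmt2c, a large enzyme that marks enhancers by methylating histone H3 at lysine 4, stood at 207.7, 236.03, 403.9, 31.2 and 219.8 CPM. Its pnd14 runs were 540.1, 137.8 and 397.2 CPM, of which the lowest lay below both pnd0 runs, 169.3 and 247.2 CPM. At pnd28 it had 3 counts, a log2 ratio over pnd14 of −3.70 [−5.99, −2.12] and −4.43 at equal depth. At pnd56 over pnd28 the ratio was 2.82 [1.04, 5.22], 3.72 at equal depth and 2.14 without the cell of the highest count. Setd1b, another lysine 4 methyltransferase, had the opposite order at these ages, with 381.04, 439.3, 293.7, 581.8 and 244.2 CPM, and a ratio of −1.25 [−2.07, −0.49] at pnd56 over pnd28. Kmt2a, a mouse relative of the fly trithorax protein, stood at 101.3, 115.97, 50.8, 207.8 and 61.1 CPM. Its pnd14 runs had 22.2, 76.5 and 65.1 CPM and its pnd7 runs 188.9, 77.9 and 80.96 CPM, so the nearest runs of these ages lay close together. The ratio of Kmt2a was −1.19 [−2.01, −0.44] at pnd14 over pnd7 and 2.03 [1.04, 3.03] at pnd28 over pnd14, and at equal depth these were −0.53 and 0.51.

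The other methyltransferases had smaller differences or fewer counts. Ehmt2, which methylates histone H3 at lysine 9, stood at 571.6, 622.1, 570.5, 322.1 and 500.6 CPM, with a ratio of −0.82 [−1.42, −0.27] at pnd28 over pnd14. Setd8 (Kmt5a), which methylates histone H4, stood at 169.9, 199.2, 220.3, 270.1 and 244.2 CPM, and its ratio of 0.52 [−0.25, 1.23] at pnd56 over pnd0 has an interval that includes no difference. Setd1a had 1 count at pnd28 against 37 at pnd14, a ratio of −3.33 [−8.67, −0.76] that was −2.64 without run 7, and no count was left at pnd28 at equal depth, which leaves a bound of −0.96. The gene Gm49388 overlaps the end of Setd1a on the same strand in GENCODE M21. Setd5 had 3 against 42 counts there, with −1.93 [−4.26, −0.28]. Kmt2e had 81.9 CPM at pnd14 and 40.9 CPM at pnd7, with 1.001 [0.21, 1.79] from overlapping runs, and 0.24 without run 4, and Srpk2 overlaps its end on the other strand. Of the 18 members of this group, 9 entered the comparison of pnd28 with pnd14, with 1 at least 2-fold higher and 5 lower, where 11.9% and 23.2% of all rows were.

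The lysine demethylases stood lower in sum at pnd14 and again at pnd56. The 17 rows summed to 1109, 1116, 785.2, 945.5 and 525.1 CPM. Their runs at pnd14, from 717.7 to 853.1 CPM, lay below those at pnd7, from 1096 to 1142 CPM, and the log2 ratio of the sums was −0.51 [−0.71, −0.31], although 0 of the 11 members that entered were at least 2-fold apart. Kdm5c, an X-linked enzyme that removes lysine 4 methylation, stood at 259.2, 267.4, 144.1, 62.3 and 122.1 CPM. Its ratio at pnd28 over pnd14 was −1.21 [−2.72, 0.01], and −0.42 without the cells with smooth muscle counts. For pnd56 over pnd0, Kdm5c had −1.09 [−2.18, −0.17]. Kdm1b, a flavin-dependent demethylase known from mouse oocytes, stood at 149.3, 130.98, 79.1, 155.8 and 12.2 CPM. Kdm1b had 1 count at pnd56 against 87 at pnd0, a ratio of −3.61 [−8.93, −1.10], which was −4.23 without run 1, −2.54 without run 2 and −2.50 at equal depth, and the opposite-strand gene Dek overlaps its end. Kdm4b, which acts on lysine 9, had no count at pnd56 and 44 at pnd0, at least 2.06-fold lower, with the bound close to no difference at equal depth (−0.02 on the log2 scale). Kdm5a and Kdm5b stood at 122.1 and 97.7 CPM at pnd56, against 188.8 and 197.4 CPM at pnd0.

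The arginine methyltransferases had 6 rows. Prmt10 (now Prmt9) stood at 72.1, 144.6, 110.2, 20.8 and 73.3 CPM, and its pnd7 runs, at 139.6, 121.8 and 165.4 CPM, lay above its pnd0 runs, at 74.5 and 69.6 CPM. The log2 ratio was 1.004 [0.48, 1.56]. At pnd28 over pnd14 Prmt10 had −2.41 [−5.50, −0.46] from 2 counts against 39, and −1.40 without run 7. No count was left at pnd28 at equal depth, which leaves a bound of −0.96. Prmt3, which methylates a ribosomal protein, stood at 89.3, 73.7, 22.6, 83.1 and 122.1 CPM, with −1.70 [−2.99, −0.62] at pnd14 over pnd7 from overlapping runs, and −2.41 without run 4. Prmt5, the main symmetric arginine methyltransferase, had 5 counts at pnd7 against 19 at pnd0, and its ratio of −2.26 [−4.03, −0.79] became 0.01 without run 2, −3.12 without run 1, −2.997 without run 5 and −1.61 without the cell of the highest count. The 6 rows summed to 169.5 CPM at pnd14 against 290.6 CPM at pnd7.

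Among the deacetylases, Hdac11 stood lower at pnd7 than at pnd0 and higher again at pnd14. Hdac11, the class IV enzyme that also removes long fatty acyl groups, stood at 144.2, 62.8, 262.7, 114.3 and 85.5 CPM. Its runs had 104.9 and 184.5 CPM at pnd0, 69.8, 63.3 and 56.3 at pnd7, and 162.8, 122.5 and 410.3 at pnd14. The pnd7 runs lay below all runs of pnd0 and of pnd14, and run 7 of pnd14 lay far above the other 2. The log2 ratio of Hdac11 was −1.20 [−1.75, −0.66] at pnd7 over pnd0 and 2.07 [1.54, 2.61] at pnd14 over pnd7, which was 1.25 without run 7. Set against pnd14, pnd28 gave −1.20 [−2.25, −0.30], and −0.39 without run 7. Cells with a count of Hdac11 made up 21.96% at pnd14 against 10.1% at pnd7, or 20.4% against 5.91% at equal depth. Hdac2, a class I enzyme of several repressor complexes, stood at 65.2, 122.8, 79.1, 207.8 and 48.8 CPM, with 1.39 [0.49, 2.27] at pnd28 over pnd14 and −2.09 [−4.10, −0.51] at pnd56 over pnd28, from 20 counts at pnd28. At equal depth that last value was −0.92. Its partner Hdac1 stood at 49.8, 75.04, 76.3, 62.3 and 24.4 CPM, with a ratio of −1.03 [−4.14, 0.96] at pnd56 over pnd0 that was −1.71 without run 1 and 0.27 without run 2. Hdac5, a class IIa enzyme, stood at 60.1, 92.8, 87.6, 103.9 and 36.6 CPM.

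The sirtuins remove acyl groups with the help of NAD. Sirt7, a nucleolar and nuclear enzyme, stood at 159.6, 139.2, 186.4, 62.3 and 329.7 CPM and was 1 of 2 members at least 2-fold higher at pnd56 than at pnd0, with a log2 ratio of 1.05 [0.37, 1.68] from 27 counts against 93, and 1.87 at equal depth. Its runs at pnd14 spread from 91.9 to 273.5 CPM. At pnd28 over pnd14 it had −1.58 [−3.08, −0.38], and −0.94 without run 7, and at pnd56 over pnd28 2.40 [1.10, 3.97]. That last value was 3.06 at equal depth and 3.07 without the cells with smooth muscle counts. The other member was Hdac7, with 5 counts at pnd56 against 17 at pnd0 and a ratio of 1.07 [−0.73, 2.56], which was 0.13 without run 1 and 4.17 without run 2. At equal depth Hdac7 had no count at pnd56, and Slc48a1 overlaps its end on the other strand. Sirt2, a mostly cytoplasmic tubulin and histone deacetylase, stood at 133.9, 155.5, 177.9, 135.1 and 61.1 CPM, and the group sum lay between 301.3 and 427.4 CPM at the 5 ages.

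Within the SWI/SNF remodelling complexes, which use ATP to move nucleosomes, the core subunit Smarcc1 stood lower and the alternative motor Smarca2 higher at pnd14. Smarcc1 (BAF155), a scaffold subunit, stood at 403.4, 463.9, 194.9, 187.02 and 256.4 CPM. Its runs had 443.5 and 362.1 CPM at pnd0, 492.8, 316.6 and 545.6 at pnd7, and 236.8, 183.7 and 162.8 at pnd14, with no overlap between pnd14 and the earlier ages. The log2 ratio at pnd14 over pnd7 was −1.25 [−1.65, −0.87]. Smarca2 (BRM) stood at 94.4, 55.9, 192.1, 83.1 and 61.1 CPM, with runs of 162.8, 122.5 and 247.5 CPM at pnd14 against 32.9, 48.7 and 80.96 CPM at pnd7. Its ratio was 1.78 [1.1997, 2.38] at pnd14 over pnd7 and −1.21 [−2.48, −0.15] at pnd28 over pnd14. Without the cells with smooth muscle counts no count of Smarca2 was left at pnd28, which leaves a bound of −1.70. Smarca2 was counted in 28.3% of thinned pnd14 cells against 8.27% of thinned pnd7 cells. Smarca4 (BRG1), the other motor, stood at 717.5, 882.7, 646.8, 706.5 and 525.1 CPM, with −0.45 [−0.67, −0.23] at pnd14 over pnd7.

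The DNA-binding subunits with ARID domains had few counts at pnd28. Arid1b stood at 75.5, 60.03, 90.4, 10.4 and 36.6 CPM, and Arid2 at 75.5, 39.6, 79.1, 10.4 and 12.2 CPM. At pnd28 over pnd14 Arid1b had −3.12 [−8.47, −0.54] and Arid2 −2.93 [−8.28, −0.33], each from 1 count. At equal depth neither had a count at pnd28, which leaves a bound of −0.81 for Arid1b and none for Arid2. Smarcd1, an accessory subunit, stood at 137.3, 81.9, 76.3, 31.2 and 48.8 CPM. Smarcd3 had 1 count at pnd7 against 20 at pnd0, a ratio of −4.65 [−10.03, −2.01], which was −5.44 without run 1, −2.90 without run 2, −3.95 without run 10 and −3.22 at equal depth. Without run 6 no count was left at pnd7, which leaves a bound of −2.59 by the floor, and Chpf2 overlaps its end on the other strand. The 16 rows of the group summed to 1764, 1806, 1491, 1226 and 1111 CPM, a ratio of −0.67 [−0.99, −0.36] at pnd56 over pnd0.

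Arid3a, a DNA-binding protein outside those complexes that is best known from B cells and the embryo, had the lowest ratio at pnd14 over pnd7. It stood at 113.3, 99.6, 2.82, 20.8 and 73.3 CPM, from 66, 73, 1, 2 and 6 counts. Its pnd14 runs had 0, 0 and 6.51 CPM, against 36.96, 136.4 and 126.7 CPM in the pnd7 runs. The log2 ratio was −5.14 [−10.46, −2.62], or −4.45 if run 3 is left out. Without run 7, which holds the single pnd14 count, a bound of −2.73 is left, and at equal depth one of −2.64. Cells with a count of Arid3a made up 0.58% at pnd14 against 13.1% at pnd7. Arid5a and Arid4a stood at 124.3 and 135.6 CPM at pnd14, against 197.8 and 85.95 CPM at pnd7.

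The CHD remodellers, of which Chd4 is the motor of the NuRD repressor complex, were lowest at pnd28 as a sum. The 9 rows summed to 1694, 1624, 1616, 758.5 and 1307 CPM, and the log2 ratio of the sums was −1.09 [−1.46, −0.74] at pnd28 over pnd14 and 0.78 [0.34, 1.23] at pnd56 over pnd28. Chd4 stood at 609.3, 626.2, 627.04, 218.2 and 525.1 CPM. Its runs had 690.6 and 525.7 CPM at pnd0, 603.6, 686.7 and 601.9 at pnd7, and 651.1, 382.7 and 709.8 at pnd14, so the pnd28 run lay below all of them. The ratio of Chd4 was −1.52 [−2.24, −0.88] at pnd28 over pnd14 and 1.27 [0.48, 2.09] at pnd56 over pnd28. Chd7, a remodeller of enhancers, stood at 118.4, 155.5, 259.9, 51.95 and 195.4 CPM, with −2.32 [−3.98, −1.05] at pnd28 over pnd14 and 1.91 [0.40, 3.71] at pnd56 over pnd28, the last of which was 0.82 at equal depth. Chd8 and Chd6 had 3 and 6 counts at pnd28 against 38 and 54 at pnd14, with −1.78 [−4.12, −0.13] and −1.29 [−2.80, −0.08], which were −0.73 and −0.43 at equal depth. Chd3 stood at 238.97 CPM at pnd28 against 321.99 at pnd14, with an interval that includes no difference. Pnd28 is 1 run of 56 cells, so these values rest on that run. The stroma list stood at 3346 CPM in it and at 2931 CPM at pnd56, and its part was not tested.

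The bromodomain proteins, readers of acetylated histones, had 7 rows, which summed to 760.4, 579.8, 615.7, 789.6 and 757.1 CPM. Brd2, which binds acetylated histone H4, stood at 260.9, 206.01, 251.4, 342.9 and 268.6 CPM, and its log2 ratio at pnd56 over pnd0 was 0.04 [−0.67, 0.69]. Brd7, a subunit of a SWI/SNF subtype, stood at 188.8, 158.3, 166.6, 93.5 and 219.8 CPM. Brd1 stood at 204.3, 111.9, 127.1, 218.2 and 158.7 CPM. Brd9, a subunit of the non-canonical SWI/SNF complex, had 13 counts at pnd28 against 15 at pnd14, a ratio of 1.67 [0.48, 2.84]. Leaving out run 7 gave 2.76, leaving out the cells with smooth muscle counts 2.33, and leaving out the cell with the highest count 0.83. At equal depth it had no count at pnd28.

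**Figure D4:**
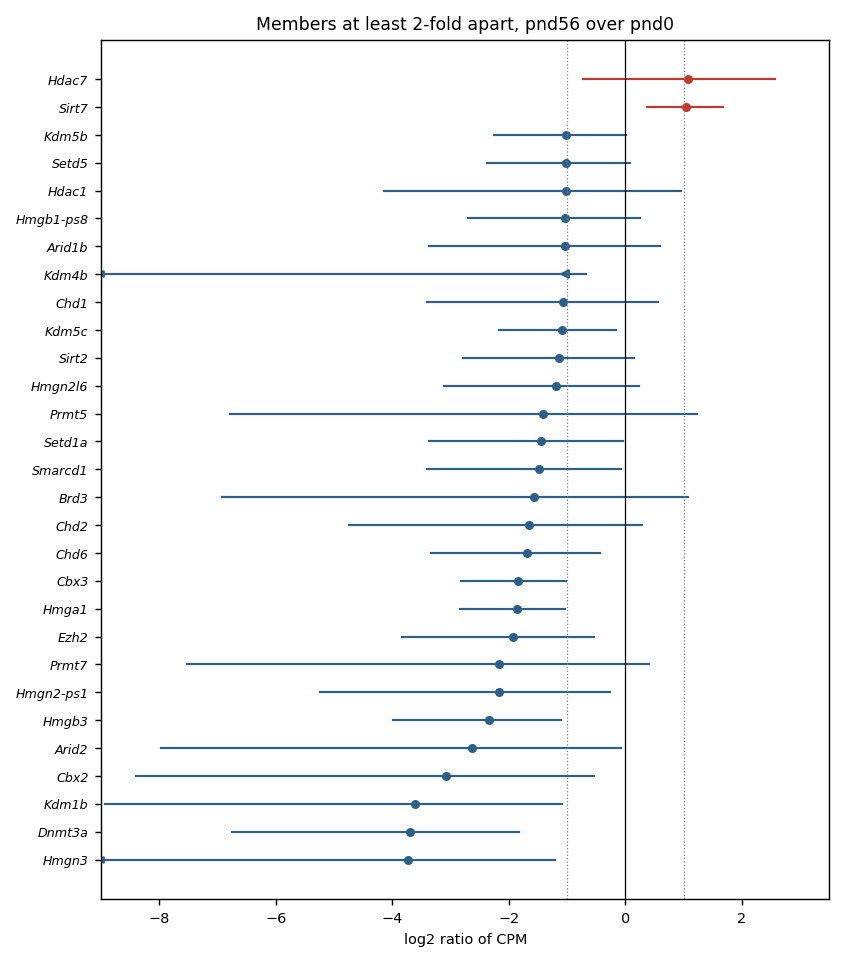
Log2 ratio of CPM at pnd56 over pnd0 (horizontal axis) of 29 members at least 2-fold apart, with exact 95% intervals; red marks are higher at pnd56 and blue marks lower, and dotted lines mark 2-fold. The triangle of Kdm4b is a bound from a count of 0 at pnd56, open arrows mark intervals that go on, and 27 of the 29 members are lower; 1 of the 30 members counted in the text is not drawn.

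The balance within pairs of related genes was read as the share of the pair's counts, across ages only. These shares do not show which of the 2 proteins a complex holds. These pairs were chosen after values had been seen. Smarca2 gave 11.6% [8.88, 14.9] of the counts of Smarca2 and Smarca4 at pnd0, 5.96% [4.31, 7.998] at pnd7, 22.9% [18.2, 28.1] at pnd14, 10.5% [4.66, 19.7] at pnd28 and 10.4% [3.47, 22.7] at pnd56. The runs ran from 17.9% to 27.5% at pnd14 against 4% to 7.88% at pnd7. The part of cells with smooth muscle counts in these shares was not tested, although 34 of the 68 pnd14 counts of Smarca2 were left without them. Smarcc1 gave 86.1%, 91.2%, 75.8%, 75% and 80.8% of the counts of Smarcc1 and Smarcc2, with runs from 72.7% to 85.7% at pnd14 against 89.04% to 92.3% at pnd7. Chd3 gave 45.97%, 43.4%, 33.9%, 52.3% and 44.2% of the counts of Chd3 and Chd4, with pnd14 runs from 25.9% to 55.4%. Kdm5b gave between 42.1% and 51.1% of the counts of Kdm5b and Kdm5a at all 5 ages, with intervals that overlap and runs from 30% to 62.7% at pnd14 and from 33.3% to 58.9% at pnd7. Cbx3 gave 71.6% [67.04, 75.8], 66.9%, 68.1%, 65.8% and 41.4% [23.5, 61.1] of the counts of Cbx3 and Cbx1, the last from 29 counts of 1 run. Smarcd1 gave 83.3%, 80%, 77.1%, 27.3% and 57.1% of the counts of Smarcd1 and Smarcd2, the last 2 from 11 and 7 counts. For Dnmt3a with Dnmt3b, Ezh1 with Ezh2 and Hdac1 with Hdac2, the intervals of the 5 ages overlapped.

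**Figure D5:**
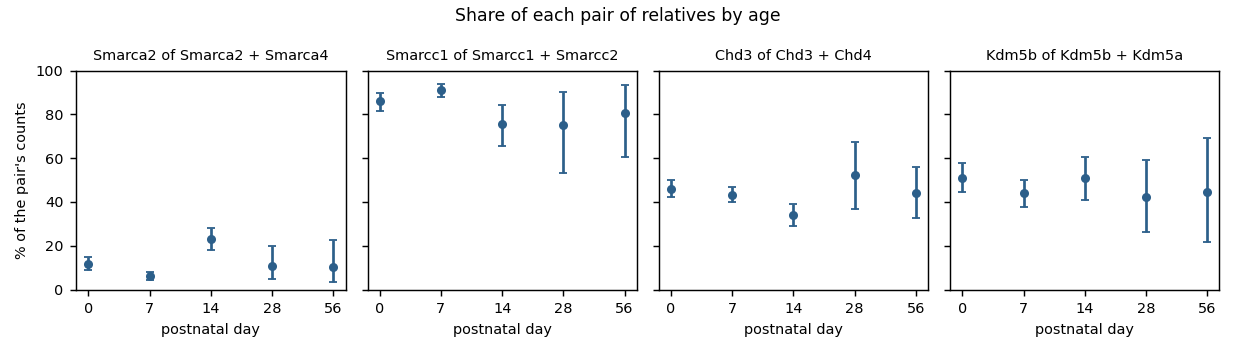
Share (%) of the first-named gene in the counts of 4 pairs of relatives at postnatal days 0, 7, 14, 28 and 56; bars are exact Clopper-Pearson 95% intervals. Smarca2 has its highest share at pnd14, 22.9%, and Smarcc1 its highest at pnd7, 91.2%.

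Other chromatin regulators, a list of 94 genes of which 82 have a row, were read beside the members. At pnd14 over pnd7, 55 entered, with 1 (1.82%) at least 2-fold higher and 7 (12.7%) lower, against 10.7% and 14.3% of all rows, so both shares lay below those of all rows. They had a median log2 ratio of −0.29 against −0.10 for all rows. The lower ones included the chromatin assembly factor subunits Chaf1b, at 110.2 CPM at pnd14 against 342.4 CPM at pnd7 with −1.64 [−2.16, −1.15], and Chaf1a, at 48.02 CPM at pnd14 against 117.3 CPM at pnd7 from overlapping runs. Uhrf1, which guides Dnmt1 to replicated DNA, stood at 22.6 CPM at pnd14 and 68.2 CPM at pnd7 with −1.59 [−2.88, −0.51]. Between pnd56 and pnd0, 53 entered, with 0 higher and 17 (32.1%) lower, against 10.3% and 27.4% of all rows. Among the lower ones were the NuRD subunit Mta1, at 61.1 CPM at pnd56 against 252.3 CPM at pnd0, and the SWI/SNF subunit Pbrm1, at 85.5 CPM at pnd56 against 290.1 CPM at pnd0.

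Cell division genes stood lower beside the lower members at pnd14, and their part was not tested. The S phase list (25 of 29 genes have a row) summed to 1903, 2077, 1096, 1590 and 1636 CPM over the 5 ages, and the G2 and M phase list (25 of 27) to 1152, 1295, 480.2, 571.4 and 793.7 CPM. At pnd14 over pnd7, 6 of 17 S phase and 12 of 16 G2 and M phase genes that entered were at least 2-fold lower and 0 higher. These are 35.3% and 75% lower, where 14.3% of all rows were lower and 10.7% higher. At equal depth, 69.03% of the pnd14 cells left against 92.9% of the pnd7 cells left had a count of either list. Within pnd14, Hmga1 stood at 256.4 CPM in the 78 thinned cells with such a count and 247.6 CPM in the 35 without, Cbx3 at 247.9 and 266.7 CPM, and Smarca2 at 239.3 and 285.7 CPM. Hmgb3 stood at 179.5 CPM with and 38.1 CPM without, from 21 and 2 counts, a log2 ratio of 2.24 [0.20, 5.37], and Hdac11 at 299.1 and 114.3 CPM, from 35 and 6 counts. These differences were not seen at each age: Hmgb3 had 0.57 [−0.48, 1.84] at pnd0 and −0.37 [−1.49, 0.995] at pnd7, and Hdac11 had −3.75 [−9.47, −0.12] at pnd28, from 1 and 3 counts. Smarcc1 stood at 239.3 CPM with such a count and 114.3 CPM without at pnd14, but at 418.1 CPM with and 740.7 CPM without at pnd7. In the 14, 12, 52, 7 and 5 cells of the 5 ages without a count of either list, the ratio of Hdac11 was 1.24 [−1.12, 3.93] at pnd7 over pnd0, from 5 and 3 counts, and −0.12 [−1.60, 1.67] at pnd14 over pnd7, from 18 and 5 counts.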

How the data were processed

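The authors deposited 1 table of counts, whole numbers for each gene in each cell. The submitters' processing notes name TopHat, Cuffnorm and the mouse build mm9, with no version and no word on what each was used for. No source at hand says whether molecular identifiers were collapsed. The intervals cover counting error only and take the counts as independent. If identifiers were not collapsed, they would be too narrow even for that error.

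Counts were summed over the cells of each age and divided by the sum of all 12479 rows (CPM), with exact Poisson intervals. Ratios of later over earlier carry exact conditional binomial intervals and shares exact Clopper-Pearson intervals, all at 95%. An age without a count was set at 3 counts to give a bound, and no bound was taken past no difference. The 5 comparisons were each age with the one before it, and pnd56 with pnd0. A row needed 20 counts over both ages. No p-value was computed, since each age is 1 sample.

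Full statistics were set for members with at least 50 counts over both ages, a 2-fold difference, an interval that excludes no difference and runs that do not overlap, up to 8 per direction and comparison, and for DNA methylation, Polycomb repressive complex 2 and HMG members with 50 counts. Other members were named after their values were seen. Some members and listed genes enter the counts and sums but are not reported here. The members and gene lists were chosen with earlier results of these data known. Alternatives were leaving out each run, thinning to 1500 counts per cell, median-of-ratios scaling, equal cell weights, other minimums and folds, and leaving out cells with smooth muscle or cell cycle counts or the cell of the largest count. Thinning left out the cells under 1500 counts.

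Names were matched to RefSeq (all but 2 members, with synonyms) and GENCODE M21. Both belong to GRCm38, not to mm9, and were used for names, sequences and neighbouring genes only. The ratios and intervals were tested on simulated independent counts. The simulation held no cells or runs, so it cannot show how the intervals do where counts cluster in cells. Python 3.11.15, numpy 2.4.6, pandas 2.3.3 and scipy 1.17.1 were used.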

Additional observations from a re-analysis of the deposited data

How the results depend on the processing

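No paired analysis was possible because the labels carry no animal or litter and each age is 1 sample. The ratios checked were those of members at least 2-fold apart. Those of DNA methylation, Polycomb repressive complex 2 and HMG members with 50 counts were added, whatever their fold. Median-of-ratios scaling and equal weights for all cells moved none of these ratios outside its interval. A change of sign was tallied only for ratios at least 2-fold apart, and none of those changed sign here. The same held for leaving out smooth muscle cells or the cell of the largest count. Thinning to 1500 counts moved 9 of these ratios outside and turned that of Hmgn2-ps1 at pnd28 over pnd14 to −0.39. Among the 9 was Hmgb3 at pnd7 over pnd0, which was less than 2-fold apart at −0.25 and stood at −0.69 when thinned. Keeping only cells without a cell cycle count moved 61 outside, turned 9 of those at least 2-fold apart and left 34 inside. The 61 include smaller ratios that changed sign. Part of the 61 are bounds set at no difference because too few counts were left. Examples at pnd56 over pnd0 are Dnmt3a with 0 against 6 counts and Cbx3 with 0 against 12. This tally therefore cannot tell a changed ratio from a lack of counts. Equal weights gave −2.41 for Ezh2 and 2.50 for Chd7 at pnd56 over pnd28, −2.55 for Setd1a and −4.19 for Arid2 at pnd28 over pnd14, −3.90 for Smarcd3 at pnd7 over pnd0 and 0.41 for Hdac7 at pnd56 over pnd0.

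Counts of members at least 2-fold apart moved as follows. Shares over all rows were taken at the main settings only, so counts at other settings, here and elsewhere, cannot be set against all rows. The number of members that entered differs too. At pnd7 over pnd0 it was 73 at a minimum of 50 counts and 130 at a minimum of 1. At pnd7 over pnd0 there were 3 lower when thinned, 1 higher and 2 lower at a minimum of 50 counts, 6 and 15 at a minimum of 1, and 9 and 14 at a fold of 1.5. At pnd14 over pnd7 there were 7 higher at a minimum of 1, and 12 higher and 31 lower at a fold of 1.5. At pnd28 over pnd14 there were 12 lower when thinned, 9 higher with equal weights, 0 higher and 12 lower at a minimum of 50, 18 higher at a minimum of 1, 10 higher at a fold of 1.5, and 15 lower when the interval also had to exclude no difference. At pnd56 over pnd28 there were 5 higher when thinned, 3 higher and 1 lower at a minimum of 50, 23 and 18 at a minimum of 1 (median −0.35), 8 lower at a fold of 1.5, and 6 higher without the copy rows, with a median of −0.27. At pnd56 over pnd0 there were 5 higher when thinned, 0 with equal weights, 1 at a minimum of 50, 8 at a minimum of 1 (median −1.09), 7 higher and 43 lower at a fold of 1.5, and 1 higher and 16 lower with the interval rule. Leaving out the copy rows was chosen after seeing the data, and turned the median of pnd7 over pnd0 to 0.042.

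Leaving out single runs, the higher members ranged from 0 to 9 and the lower from 5 to 9 at pnd7 over pnd0, from 2 to 5 and 13 to 20 at pnd14 over pnd7, from 4 to 6 and 14 to 20 at pnd28 over pnd14, and from 0 to 3 and 21 to 25 at pnd56 over pnd0. Ratios then ranged from −1.80 to 0.15 for Chd3os and −3.12 to 0.011 for Prmt5 at pnd7 over pnd0, and from −1.69 to 0.073 for Chd1, −1.71 to 0.27 for Hdac1 and −2.28 to 0.85 for Prmt5 at pnd56 over pnd0.

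In the 14, 12, 52, 7 and 5 cells without a cell cycle count, the lower members were 1 of 12, 4 of 27 and 6 of 25 that entered in the first 3 comparisons, and 0 higher and 3 lower of 3 at pnd56 over pnd0, with medians of 0.51 at pnd7 over pnd0 and −2.41 at pnd56 over pnd0, so few members entered. There Hdac11 turned to 1.24 and −0.12 in the first 2 comparisons, Hmgn3 to 0.11 from 9 counts and Prmt10 to 2.11 from 3 counts at pnd28 over pnd14, Hmgb1-ps3 and Hmgb1-ps5 to −0.48 and Setd1b to 1.52 at pnd56 over pnd28 from 3 counts each, and Setd5 to 2.59 at pnd56 over pnd0 from 7 counts. Except for Setd5, whose interval starts at 0.023, the intervals of these ratios include no difference. Some ratios under 2-fold changed sign as well. Hmgb3 at pnd28 over pnd14 went from −0.32 to 2.53 [0.26, 4.60], from 4 and 6 counts. Ezh2 at pnd7 over pnd0 went from −0.13 to a bound of 1.73, from 7 counts against 0. The −0.70 of Chd4 at pnd56 over pnd28 is a bound from 0 against 7 counts. The cause of these changes was not tested. With 96248 and 81894 counts at pnd28 and pnd56, a member without a count there may reach 31.2 or 36.6 CPM.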
